A study of Mus musculus with 9 samples.

Results

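The genes described are those of the skeletal muscle triad that release calcium from its store and return it there: Ryr1, Cacna1s, Cacnb1, Cacng1, Atp2a1, Casq1, Trdn, Jph1 and Jph2. They were taken as a list by name, together with every probe set that the platform annotation lists to them. That gave 20 probe sets for 9 genes, of 45037 probe sets and 18193 genes in the whole data set, and none of the 20 was also listed to another gene. The tissue was the gastrocnemius, a fast muscle of the calf, collected 14 days after surgery from young adult mice of the outbred CD-1 stock. Mice of the testosterone group were castrated and then carried a pellet under the skin with 2.5 mg of testosterone, made to release it over 60 days. The castration group had the same surgery with a placebo pellet, and the sham group had sham surgery with a placebo pellet. Each group had 3 Affymetrix arrays, and the RNA on an array was an equal mix from 3 animals, so that no value belongs to a single mouse. Values are log2 expression, on a scale where a step of 1 is a doubling of signal, and a probe set's level is compared only with itself on other arrays.

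At the triad a transverse tubule, an inward fold of the surface membrane, lies between a pair of sacs of the sarcoplasmic reticulum, the internal calcium store. A voltage-sensing channel in the tubule opens the calcium release channel of the store by direct contact, the released calcium starts contraction, and a pump then returns it. Androgens are known to maintain muscle mass in mice, above all in perineal muscles, while limb muscles such as the gastrocnemius respond less.

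The promoters of Cacna1s, Casq1 and Cacnb1 are shown because these genes had the smallest p-values of the 9 in castration against the mean of testosterone and sham, described below. The windows reach from 250 bases before to 50 bases after a RefSeq start on build GRCm38.p6, and capitals mark the E-box CAGCTG, a motif bound by muscle basic helix-loop-helix factors. They are Cacna1s chr1:136052561-136052860 on the plus strand, Casq1 chr1:172219846-172220145 on the minus strand, and 2 starts of Cacnb1 on the minus strand, chr11:98022578-98022877 and chr11:98018323-98018622.
Cacna1s: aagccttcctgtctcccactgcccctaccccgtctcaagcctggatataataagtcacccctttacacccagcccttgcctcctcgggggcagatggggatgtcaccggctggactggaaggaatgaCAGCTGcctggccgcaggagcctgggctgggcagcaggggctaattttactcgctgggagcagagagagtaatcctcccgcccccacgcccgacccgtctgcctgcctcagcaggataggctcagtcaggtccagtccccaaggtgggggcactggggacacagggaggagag
Casq1: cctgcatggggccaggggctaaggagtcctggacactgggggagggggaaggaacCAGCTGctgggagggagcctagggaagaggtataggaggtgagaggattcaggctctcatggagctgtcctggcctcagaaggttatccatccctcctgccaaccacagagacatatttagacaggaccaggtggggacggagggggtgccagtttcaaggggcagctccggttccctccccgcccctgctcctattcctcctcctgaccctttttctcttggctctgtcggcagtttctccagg
Cacnb1, first start: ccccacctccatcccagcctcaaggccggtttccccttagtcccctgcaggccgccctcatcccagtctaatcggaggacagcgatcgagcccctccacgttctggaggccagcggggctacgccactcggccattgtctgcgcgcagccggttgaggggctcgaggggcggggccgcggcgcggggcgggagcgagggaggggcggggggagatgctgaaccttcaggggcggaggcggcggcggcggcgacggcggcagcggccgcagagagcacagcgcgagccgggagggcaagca
Cacnb1, second start: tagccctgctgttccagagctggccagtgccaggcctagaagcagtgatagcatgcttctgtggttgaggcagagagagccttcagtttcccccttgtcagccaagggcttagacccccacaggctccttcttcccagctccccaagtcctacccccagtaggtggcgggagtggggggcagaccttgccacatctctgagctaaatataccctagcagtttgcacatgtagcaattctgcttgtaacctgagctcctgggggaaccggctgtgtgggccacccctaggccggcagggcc
CAGCTG, which reads the same on both strands, stood 123 bases before the start in Cacna1s and 195 bases before it in Casq1, and in neither Cacnb1 window. The second Cacnb1 window held only the looser core CANNTG, of which CAGCTG is 1 form, at 27 bases before the start. Of 32851 RefSeq promoter windows of the same length, 16.3% held CAGCTG and 72.3% the core. AGAACA, the repeat unit of the androgen response element, searched on both strands, was in 19.0% of all windows and in none of the 8 windows found for 6 of the 9 genes. The other windows, those of Jph2, Atp2a1 and Ryr1, held CAGCTG in Jph2 and Atp2a1.

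Most probe sets of the triad genes were bright in this tissue. Of the 20 probe sets, 15 had a mean over all arrays of at least 5, which 8721 of the 45037 probe sets reached, and each gene had at least 1 such probe set. Atp2a1, which encodes SERCA1, the calcium pump of fast fibres, lay between 13.93 and 14.07 on all arrays, near the top of the table at 14.24. All 10 fast fibre markers were also bright, from Acta1 at 14.17 to 14.24 to Myh1 at 12.04 to 12.42. The remaining 5 member probe sets, 2 each of Cacnb1 and Trdn and 1 of Jph1, were dim, with values between 2.83 and 4.84 but for 1 of 5.50.

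Arrays sham 2 and testosterone 2 stood apart. Their mean correlations with the other arrays were 0.981 for testosterone 2 and 0.972 for sham 2, against 0.989 to 0.991 for the rest. Over the brighter probe sets the median of sham 2 was 6.42, against 6.90 to 7.04 on the other arrays. In castration against sham 78.7% of the bright probe sets were above 0, with a median difference of 0.15. Several member results are given below with and without these arrays.

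Across all 20 probe sets, none passed limma's test at an adjusted p under 0.05 in any comparison. In the table as a whole 0% passed in castration against sham, 0% in testosterone against castration and 0% in testosterone against sham, with smallest adjusted p-values of 0.125, 0.0872 and 0.797 in limma. In castration against the mean of testosterone and sham, a contrast that sets the group without androgen against both groups with it, 0.0311% of probe sets passed, 14 in all and no member. At an unadjusted p under 0.05, 1889 probe sets differed in castration against sham, 1360 in testosterone against castration, 2141 in testosterone against sham and 1445 in the combined contrast. The statements that follow are therefore values with their errors, and the words higher and lower describe these arrays.

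**Figure D1:**
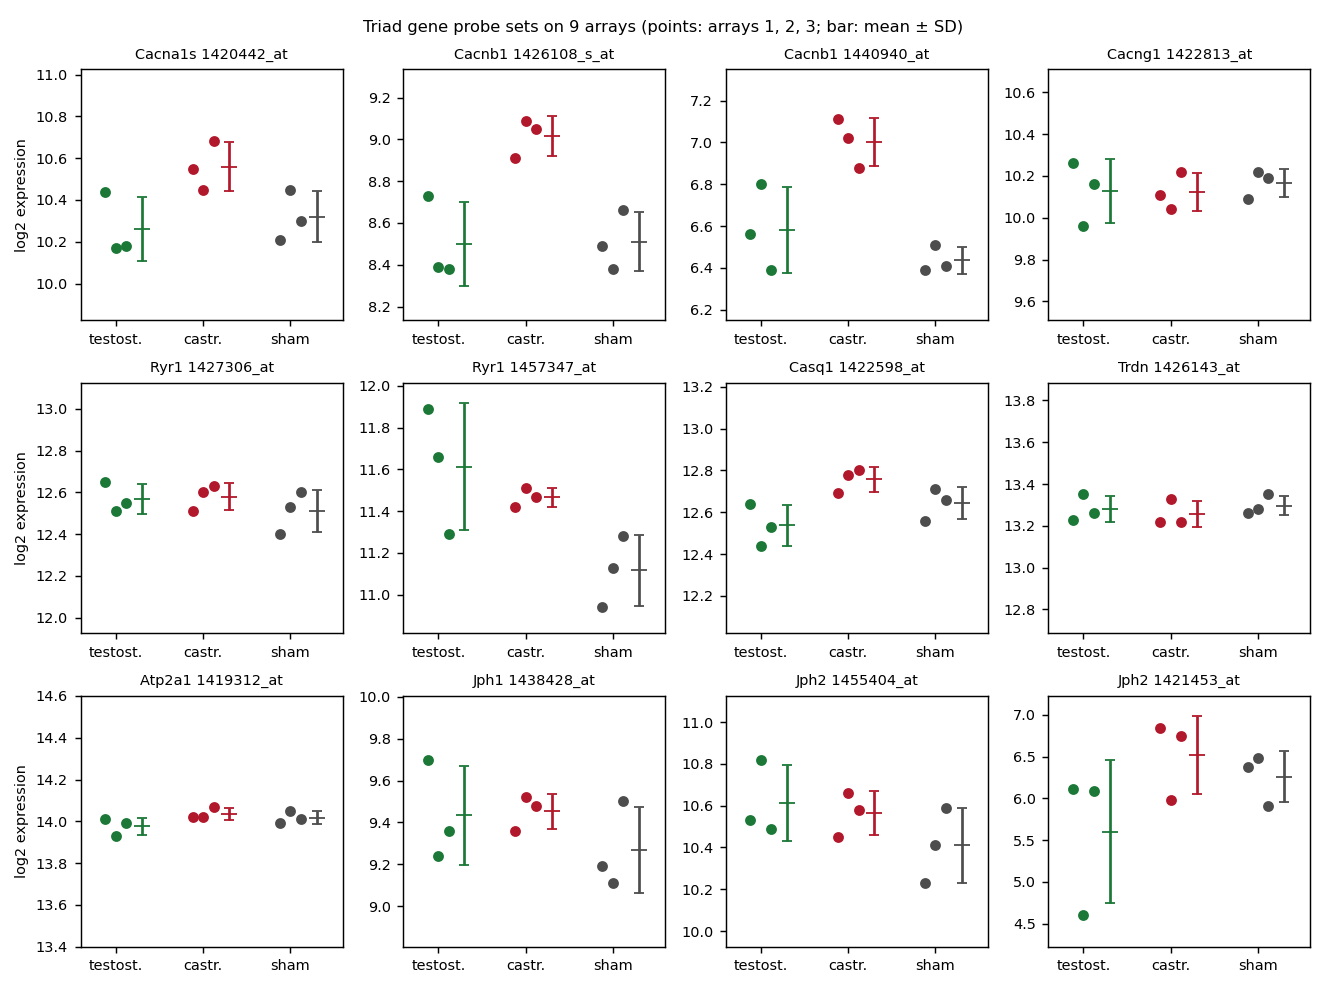
Log2 expression (y axis) of 12 probe sets of the 9 triad genes on the testosterone, castration and sham arrays (x axis). Points are arrays 1, 2 and 3 of a group and bars the mean ± SD, and every panel has the same height in log2 units except Jph2 1421453_at, which is drawn at a coarser scale. All 3 castration arrays lie above the other 6 in both Cacnb1 panels, while the groups of Cacng1, Trdn 1426143_at and Ryr1 1427306_at overlap.

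The voltage sensor comes first. It is a complex of the pore-forming subunit Cacna1s, the intracellular beta subunit Cacnb1, which carries the complex to the tubule, and the membrane-spanning gamma subunit Cacng1. Cacnb1 had the clearest pattern of the 9 genes. Its probe set 1426108_s_at read 8.73, 8.39 and 8.38 on the testosterone arrays, 8.91, 9.09 and 9.05 on the castration arrays, and 8.49, 8.38 and 8.66 on the sham arrays. The second, 1440940_at, read 6.56, 6.80 and 6.39 with testosterone, 7.11, 7.02 and 6.88 after castration, and 6.39, 6.51 and 6.41 in sham. In both probe sets every castration array lay above all 6 other arrays, and the testosterone and sham arrays overlapped.

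The size of this difference was alike in both Cacnb1 probe sets. By 1426108_s_at, castration was 1.42-fold above sham, a log2 difference of 0.50 with an SE of 0.12 and a 95% interval from 0.24 to 0.77 (limma adjusted p = 0.844). Testosterone against castration gave −0.51 with an interval from −0.78 to −0.25 (limma adjusted p = 0.788). By 1440940_at, castration was 1.48-fold above sham, a log2 difference of 0.57 with an SE of 0.11 and an interval from 0.31 to 0.82, and testosterone against castration gave −0.42 with an interval from −0.68 to −0.17. Neither probe set differed clearly between testosterone and sham, with −0.01 (interval −0.28 to 0.25) and 0.15 (interval −0.11 to 0.40). The level of Cacnb1 thus stood highest in castration, and the other groups did not differ beyond their spread.

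In castration against the mean of testosterone and sham, Cacnb1 1426108_s_at differed by 0.51 (SE 0.10, interval 0.28 to 0.74, unadjusted p = 0.000815) and 1440940_at by 0.50 (SE 0.10, interval 0.27 to 0.72, unadjusted p = 0.000754). These p-values ranked 94 and 84 of 45037, with a limma adjusted p of 0.391 for both. Without sham 2 and testosterone 2 the differences were 0.45 and 0.57. With array weights, which count less the arrays that stray from their group, the value of 1440940_at was 0.56 with a limma adjusted p of 0.0396, the only call of a member in any setting run. The weight was 2.47 for sham 1 and 0.223 for sham 2. Over all settings run, limma's adjusted p ranged from 0.0396 to 1.0 for 1440940_at and from 0.102 to 1.0 for 1426108_s_at. The suffix s of 1426108_s_at marks probes shared by several transcripts, and the suffix of 1440940_at carries no such mark.

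The dim Cacnb1 probe sets did not show this pattern. Probe set 1425777_at read 3.94, 3.60 and 4.04 with testosterone, 4.12, 4.05 and 4.04 after castration, and 4.14, 3.78 and 4.05 in sham. Probe set 1451834_at lay between 3.51 and 3.73 on 8 arrays and at 5.50 on sham 2 alone.

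Cacna1s read 10.44, 10.17 and 10.18 on the testosterone arrays, 10.55, 10.45 and 10.68 on the castration arrays, and 10.21, 10.45 and 10.30 on the sham arrays. Every testosterone array lay below every castration array, while castration and sham met at 10.45. Testosterone against castration was −0.30 with an SE of 0.10 and an interval from −0.53 to −0.06 (unadjusted p = 0.0206, limma adjusted p = 1.0). Castration against the mean of both other groups was 0.27 with an SE of 0.09 and an interval from 0.06 to 0.47, and it was 0.28 without sham 2 and testosterone 2. Castration thus had the highest group mean in both the pore subunit and the beta subunit, by less in Cacna1s, and neither was called.

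Cacng1 gave no such difference. It read 10.26, 9.96 and 10.16 with testosterone, 10.11, 10.04 and 10.22 after castration, and 10.09, 10.22 and 10.19 in sham, so that all groups overlapped. Castration against the mean of testosterone and sham was −0.02, with an interval from −0.21 to 0.16. That interval leaves out changes of the size measured for Cacnb1.

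The calcium release channel of the store is Ryr1, the ryanodine receptor of skeletal muscle. Its brighter probe set, 1427306_at, averaged 12.57 ± 0.07 with testosterone, 12.58 ± 0.06 after castration and 12.51 ± 0.10 in sham (SD, n = 3 each). The groups overlapped, and castration against the mean of both was 0.04 with an interval from −0.11 to 0.19. The second probe set, 1457347_at, read 11.89, 11.66 and 11.29 with testosterone, 11.42, 11.51 and 11.47 after castration, and 10.94, 11.13 and 11.28 in sham. Here sham lay below both castrated groups on every array. Testosterone was 1.41-fold above sham, a log2 difference of 0.50 with an SE of 0.15 and an interval from 0.16 to 0.83 (limma adjusted p = 0.797), and castration against sham gave 0.35 with an interval from 0.01 to 0.69. Without sham 2 and testosterone 2, 1457347_at was higher at an unadjusted p under 0.05 in testosterone against sham but not in castration against sham. The 2 probe sets of Ryr1 disagreed, and which of them follows the transcript was not tested.

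**Figure D2:**
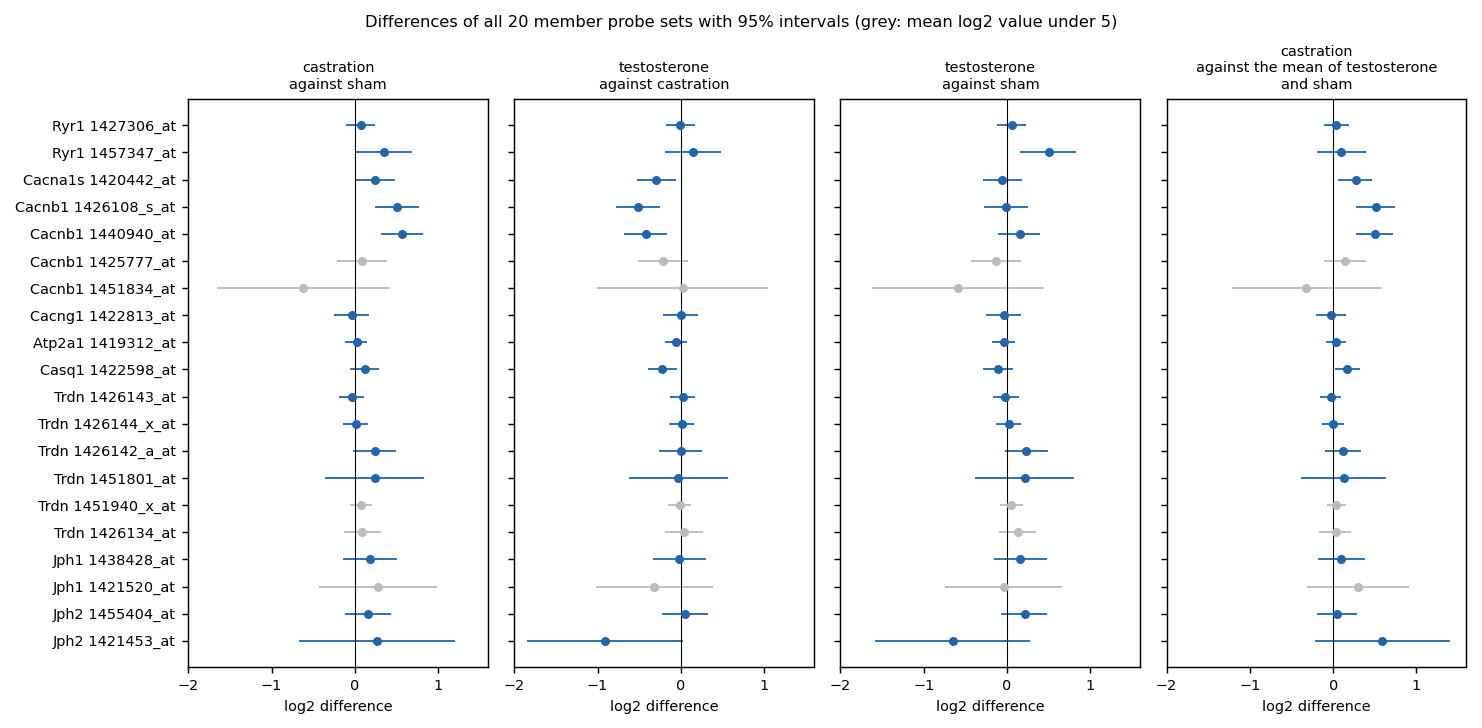
Log2 differences (x axis) with 95% intervals of all 20 probe sets (y axis) in castration against sham, testosterone against castration, testosterone against sham, and castration against the mean of testosterone and sham. Grey marks the 5 probe sets with a mean under 5. Both brighter Cacnb1 probe sets lie at 0.50 and 0.57 in castration against sham and at −0.51 and −0.42 in testosterone against castration.

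Inside the store, Casq1, the calsequestrin of fast fibres, binds calcium, and Trdn, triadin, anchors it to the release channel. Casq1 read 12.64, 12.44 and 12.53 on the testosterone arrays, 12.69, 12.78 and 12.80 on the castration arrays, and 12.56, 12.71 and 12.66 on the sham arrays. The testosterone arrays all lay below the castration arrays, and sham fell between them and overlapped both. Testosterone against castration was −0.23 with an SE of 0.08 and an interval from −0.40 to −0.05 (unadjusted p = 0.0174, limma adjusted p = 1.0). Castration against the mean of both was 0.17 with an interval from 0.02 to 0.32, and 0.16 without sham 2 and testosterone 2.

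Trdn had 4 brighter probe sets. The brightest, 1426143_at, read 13.23, 13.35 and 13.26 with testosterone, 13.22, 13.33 and 13.22 after castration, and 13.26, 13.28 and 13.35 in sham, a range of 0.13 over all arrays. Probe set 1426144_x_at stayed between 12.67 and 12.81 and 1451801_at spread from 6.65 to 7.70, with overlapping groups in both. Probe set 1426142_a_at read 10.84, 11.0 and 10.60 with testosterone, 10.75, 10.96 and 10.75 after castration, and 10.51, 10.57 and 10.67 in sham. Only in this last one did castration lie wholly above sham, by 0.24 with an interval from −0.02 to 0.49 (limma adjusted p = 0.883). The dim probe set 1426134_at, at 2.83 to 3.23, had its testosterone arrays just above its sham arrays.

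Atp2a1, the pump that refills the store, read 14.01, 13.93 and 13.99 with testosterone, 14.02, 14.02 and 14.07 after castration, and 13.99, 14.05 and 14.01 in sham. The testosterone arrays lay below the castration arrays, but the difference was −0.06 with an SE of 0.06 and an interval from −0.19 to 0.07. A signal so near the top of the table can be compressed, which was not tested.

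Jph1 and Jph2 encode junctophilins, which tie the tubule to the store and hold the triad together. Jph1 1438428_at read 9.70, 9.24 and 9.36 with testosterone, 9.36, 9.52 and 9.48 after castration, and 9.19, 9.11 and 9.50 in sham, with overlapping groups. Its dim probe set 1421520_at ran from 3.53 on testosterone 2 to 4.84 on castration 1. Jph2 1455404_at read 10.53, 10.82 and 10.49 with testosterone, 10.45, 10.66 and 10.58 after castration, and 10.23, 10.41 and 10.59 in sham. Its groups overlapped too, and castration against the mean of both was 0.05 with an interval from −0.19 to 0.29. The other Jph2 probe set, 1421453_at, read 6.11, 4.61 and 6.09 with testosterone, 6.84, 5.98 and 6.74 after castration, and 6.38, 6.48 and 5.91 in sham. Its testosterone against castration value of −0.91 had an interval from −1.85 to 0.02, and it was −0.42 without testosterone 2.

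Counted over the members, the probe sets at an unadjusted p under 0.05 lay mostly on the side of higher values after castration. The list was chosen with earlier results of these data known, so these counts are descriptions and no independent support. With centring on bright probe sets, described below, 0 of the 20 were higher in castration against sham, against 0.755% of all. In castration against sham 4 of the 20 probe sets were higher at an unadjusted p under 0.05, namely Ryr1 1457347_at, Cacna1s and both brighter Cacnb1 probe sets, against 2.5% of all probe sets, and 0 were lower, against 1.7%. In testosterone against castration 4 were lower, those of Cacna1s, Cacnb1 and Casq1, against 1.55% of all, and 0 were higher, against 1.47%. These comparisons share the castration arrays, so the second count is not a separate observation. Without sham 2 and testosterone 2 the counts were 3 higher in castration against sham, against 2.21% of all, and 3 lower in testosterone against castration, against 2.29%, each of Cacna1s and Cacnb1. The counts also moved with single arrays. In castration against sham 2 were higher, both of Cacnb1, without castration 1 (against 1.57% of all), without castration 3 (2.39%) or without sham 1 (2.89%). In testosterone against castration 2 were lower, again both of Cacnb1, without testosterone 2 (1.25%) or without castration 3 (1.29%). In testosterone against sham 1 was higher, Ryr1 1457347_at, against 2.69%, and 0 were lower, against 2.07%. There 3 were higher without testosterone 3, against 3.81%, and 2 without sham 3, against 7.54%.

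In castration against the mean of testosterone and sham, 4 of 20 were higher, those of Cacna1s, Cacnb1 and Casq1, against 1.98% of all probe sets, and 0 were lower, against 1.23%. Bright probe sets are called more often, and among those with a mean of at least 5 the count was 4 of 15, against 5.37%. Both of the brighter Cacnb1 probe sets are among the 4, so the count covers 3 genes, and without sham 2 and testosterone 2 it was again 4 of 20, against 2.52% of all. Without castration 3 it was 2 of 20, both of Cacnb1, against 1.75%. Members of a list share arrays and are not replicates, and no test of the count was made.

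Groups that do not overlap were also counted. These counts come from the same values on the same arrays, so they are not a separate observation. They were not repeated without sham 2 or with centring on bright probe sets, and the shares over all probe sets include dim ones. All castration arrays lay above all sham arrays in 4 of 20 member probe sets (Ryr1 1457347_at, both Cacnb1 and Trdn 1426142_a_at), against 4.26% of all. All testosterone arrays lay below all castration arrays in 5 of 20 (Cacna1s, both Cacnb1, Atp2a1 and Casq1), against 4.09%. All testosterone arrays lay above all sham arrays in 2 of 20, Ryr1 1457347_at and the dim Trdn 1426134_at, against 3.11%. The castration arrays lay above the other 6 in 2 of 20, against 1.36%, and in 2 of the 15 brighter ones, against 4.06%, and both were of Cacnb1.

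The median of the members lay close to that of other bright probe sets. In castration against the mean of testosterone and sham the 15 brighter member probe sets had a median difference of 0.10, and all 8721 bright probe sets had 0.08. In castration against sham the medians were 0.18 for these members and 0.15 for all bright probe sets, with 86.7% and 78.7% above 0. In testosterone against castration they were −0.02 and −0.01. The members as a list therefore lay higher against sham by about as much as bright probe sets at large, and in the combined contrast these members ran from −0.03 for Trdn 1426143_at to 0.59 for Jph2 1421453_at.

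That shift also bears on direction. When each array was centred on the median of its bright probe sets, every castration minus sham difference dropped by 0.20 and every value of the combined contrast by 0.10. The combined contrast then gave 0.41 and 0.39 for the Cacnb1 probe sets, 0.16 for Cacna1s and 0.07 for Casq1, while Casq1 in castration against sham turned to −0.08. Under this centring Ryr1 1427306_at, Jph1 1438428_at and Jph2 1455404_at read −0.13, −0.02 and −0.04 in castration against sham, where 0 of the 20 probe sets were then higher at an unadjusted p under 0.05, against 0.755% of all. In the combined contrast 2 were, both of Cacnb1, against 0.833% of all probe sets. In testosterone against castration 2 were lower, Cacnb1 1426108_s_at and Jph2 1421453_at, against 0.993%. In testosterone against sham 0 were higher, against 0.857%, and 1 was lower, Jph2 1421453_at, against 2.94%. This centring, and the repeats of these counts, were added after seeing the data. Both Cacnb1 probe sets kept their direction in the combined contrast under every setting run, from 0.41 to 0.57 and from 0.39 to 0.57.

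**Figure D3:**
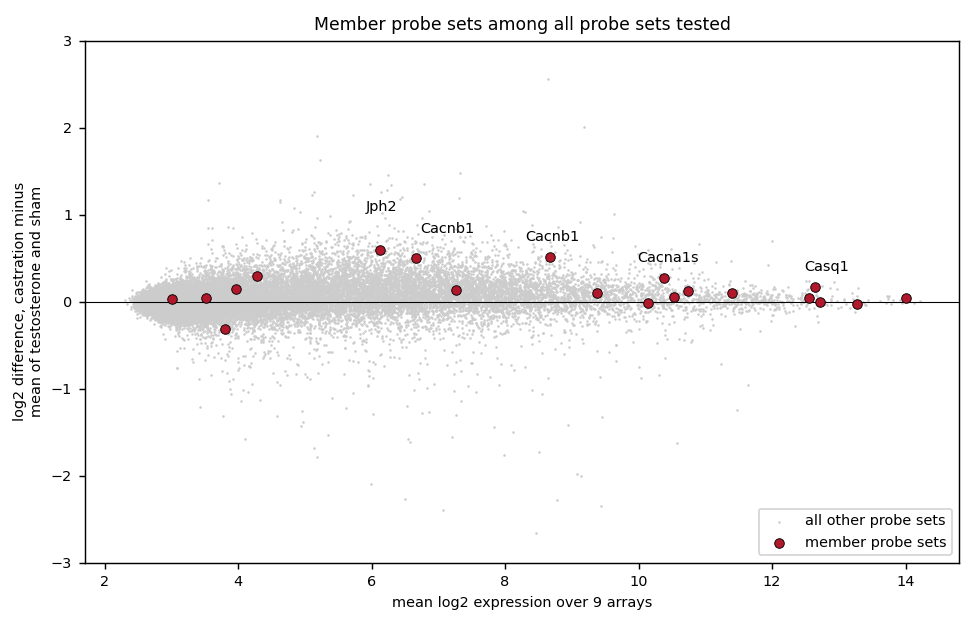
Each point is a probe set, with its mean log2 expression over 9 arrays on the x axis and its log2 difference in castration minus the mean of testosterone and sham on the y axis. Red points are the 20 triad probe sets and grey points all others. The Cacnb1 points at 0.51 and 0.50 lie in the upper part of the grey cloud for their brightness, while most other members lie within 0.15 of 0.

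Other genes of calcium handling were read from 4 lists, of which 53 of 65 genes had a probe set of their own, and 0 passed limma's adjusted p of 0.05 in any comparison. At an unadjusted p under 0.05, 6 of the 53 were higher in castration than in the mean of testosterone and sham, or 11.3% against 2.84% of all 18193 genes, and 1 was lower, or 1.89% against 1.7%. In castration against sham 10 were higher, or 18.9% against 3.32% of all genes, and 0 lower, against 2.0%. In testosterone against castration 1 was higher, or 1.89% against 1.89% of all genes, and 4 were lower, or 7.55% against 2.06%. In testosterone against sham 4 were higher, or 7.55% against 2.96%, and 1 was lower, or 1.89% against 2.09%. The median of the 53 in the combined contrast was 0.05, and that of all bright probe sets was 0.08. In castration against sham 79.2% of the 53 were above 0, against 78.7% of all bright probe sets. In the combined contrast 71.7% were, against 68.9%. The shares over all genes, here and for each list below, include dim ones. Among probe sets with a mean of at least 5, 5.37% were higher at that p in the combined contrast. The counts of these lists were not repeated without sham 2 or with centring on bright probe sets. The other listed genes were not analysed here.

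Among 23 triad and reticulum partners, 3 were higher, or 13.0% against 2.84% of all genes, and 1 was lower, or 4.35% against 1.7%, at an unadjusted p under 0.05 in the combined contrast. Stac3, an adaptor that the voltage sensor needs to reach the triad and to couple to the release channel, read 10.08, 9.94 and 9.98 with testosterone, 10.19, 10.25 and 10.12 after castration, and 9.95, 10.0 and 10.07 in sham. Its castration arrays lay above the other 6, with a difference of 0.18 (interval 0.05 to 0.32, limma adjusted p = 0.999). Sypl2, mitsugumin 29, a membrane protein of the triad, read 9.69, 9.66 and 9.56 with testosterone, 9.81, 9.88 and 9.89 after castration, and 9.58, 9.43 and 9.69 in sham. It also had every castration array on top, by 0.26 (interval 0.10 to 0.42, limma adjusted p = 0.999). Cacna2d1, the alpha2delta subunit of the voltage sensor, differed by 0.28 (interval 0.00 to 0.56), with testosterone 1 at 10.52 inside the castration range.

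Of the 23 partners 5 were below 0, and Speg, a kinase found at the triad, was the 1 counted as lower. It read 9.29, 9.63 and 9.48 with testosterone, 9.16, 9.21 and 9.27 after castration, and 9.27, 9.30 and 9.42 in sham, a difference of −0.19 with an interval that ends just below 0 (unadjusted p = 0.0470). Of the sensor's subunits and adaptor, Cacnb1, Cacna1s, Cacna2d1 and Stac3 thus had castration highest in their group means, and Cacng1 did not. None of these genes was called in the main fit, and 68.9% of all bright probe sets were above 0 in the combined contrast.

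Of 10 tubule genes, 0 differed at an unadjusted p under 0.05 in the combined contrast, against 2.84% of all genes higher and 1.7% lower. Dysf, dysferlin, a membrane repair protein, averaged 6.85 ± 0.02 with testosterone, 6.84 ± 0.04 after castration and 6.44 ± 0.21 in sham (SD, n = 3 each). The means of both castrated groups lay above that of sham, which had the widest spread. Centring on bright probe sets lowers differences against sham by 0.20 for castration and 0.19 for testosterone. Mtmr14, a phosphoinositide phosphatase, was 0.25 and Mtm1, myotubularin, 0.23 in the combined contrast, and Kcnj11, the pore of the ATP-sensitive potassium channel, 0.27, none past the unadjusted threshold.

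Of 10 genes of calcium removal and buffering, 2 were higher in castration at an unadjusted p under 0.05, against 2.84% of all genes. Slc8a3, a sodium-calcium exchanger, read 8.06, 8.11 and 7.85 with testosterone, 8.24, 8.49 and 8.25 after castration, and 7.82, 7.85 and 8.11 in sham, and all castration arrays lay above the rest by a mean difference of 0.36 (interval 0.13 to 0.58, limma adjusted p = 0.999). Canx, the reticulum chaperone calnexin, differed by 0.42 (interval 0.01 to 0.82), with sham 2 alone at 7.41. Pln, phospholamban, a SERCA inhibitor, and Atp2b4, a surface calcium pump, were dim, with differences of 0.28 and −0.10.

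Of 10 store-operated and mitochondrial genes 1 was higher at that p, against 2.84% of all genes. Micu2, a gatekeeper of the mitochondrial calcium uniporter, differed by 0.63 (interval 0.01 to 1.25). It read 6.36, 6.15 and 6.25 with testosterone, 7.01, 6.89 and 6.36 after castration, and 6.11, 5.24 and 6.60 in sham. Castration 3 lay inside the sham range, and the lowest value was on sham 2. Mcu, the uniporter's pore, differed by 0.16, Orai3, a store-operated channel, by 0.22 and Trpc4, a cation channel, by 0.05. The ends of the range over the 4 lists, named after their values were seen, were Micu2 and Sln, sarcolipin, a small SERCA inhibitor, at −0.80 with an interval from −2.36 to 0.76. Casq2, the calsequestrin of slow fibres, differed by 0.58 with an interval from −0.03 to 1.18 and had its lowest value, 6.20, on sham 2.

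**Figure D4:**
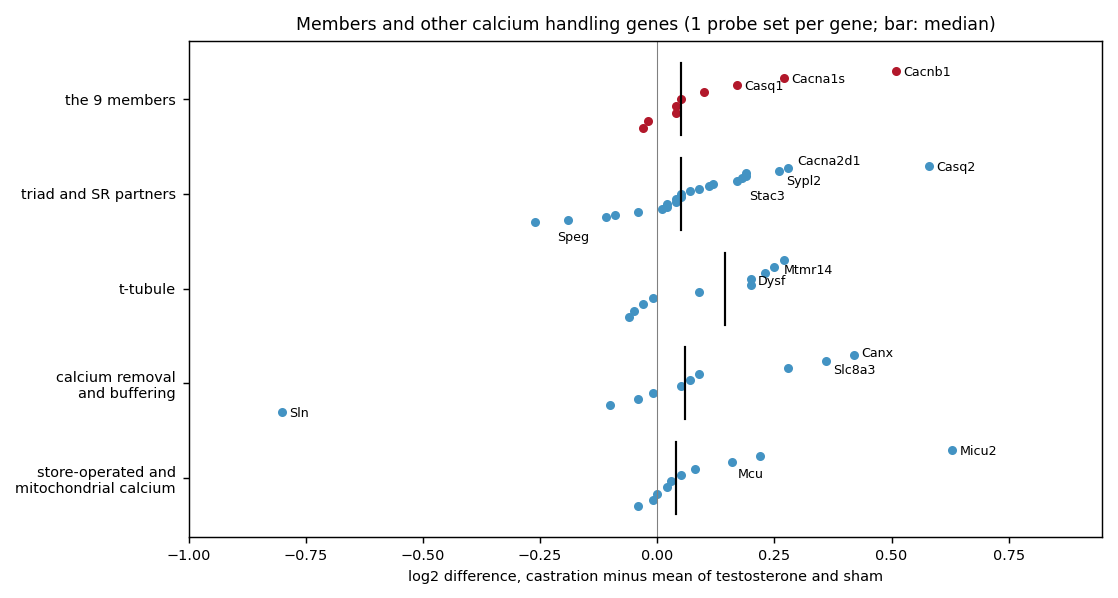
Log2 difference in castration minus the mean of testosterone and sham (x axis) for the 9 triad genes and 4 lists of other calcium handling genes (y axis), with 1 probe set per gene. Points are genes and black bars medians. Cacnb1 at 0.51 is the highest of the 9, the medians of the lists lie between 0.04 and 0.14, and Sln at −0.80 is the lowest point.

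The make-up of the samples was read from marker lists, each as the mean deviation of its genes from their own means over arrays. Fewer cells of a type and less RNA per cell cannot be told apart in such tissue samples. Fast fibre markers hardly varied, from −0.03 to 0.00 on the testosterone arrays, −0.01 to 0.03 on the castration arrays and −0.03 to 0.04 on the sham arrays. Slow fibre markers ranged from −0.37 to 0.65, from −0.22 to 0.59 and from −0.68 to 0.34 in the same order, with overlapping groups.

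Markers of other cell types differed between the arrays and were not tested. The 8 measured adipocyte markers lay between −0.50 and 1.07 on the testosterone arrays and −0.32 and 1.07 on the sham arrays. On the castration arrays they lay between −0.62 and −0.57, so castration was lowest, and 5 of the 8 were dim. The high ends were testosterone 2 and sham 2, and testosterone 3 at −0.50 lay close to castration. Of the 8, 1 was higher in castration than in the mean of both, Lpl, with its highest value of 12.27 on castration 1. Matrix markers lay between −0.59 and −0.15 with testosterone, 0.28 and 0.47 after castration and −0.61 and 0.33 in sham, and 8 of 8 were higher in castration than in the mean of both. Sham 1 and sham 3, at 0.33 and 0.30, lay inside the castration range, and sham 2 was the low sham array. Endothelial markers lay between −0.31 and 0.10, 0.05 and 0.43, and −0.46 and 0.02 on the same groups of arrays, with 6 of 6 higher. The low ends were testosterone 2 and sham 2, the high end was castration 1, and testosterone 1 at 0.10 lay inside the castration range. The mean of the macrophage and lymphocyte markers was high on testosterone 2, at 1.26, and on sham 2, at 0.43, against −0.29 to −0.17 on the castration arrays. Of these 10 genes 6 were dim, and they split on sham 2. There Cd74 at 8.27 and H2-Aa at 7.11 lay above the other sham arrays, while Csf1r at 6.21 and C1qa at 4.79 lay below them. The part of these cells in the Cacnb1, Cacna1s and Casq1 differences was not tested.

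**Figure D5:**
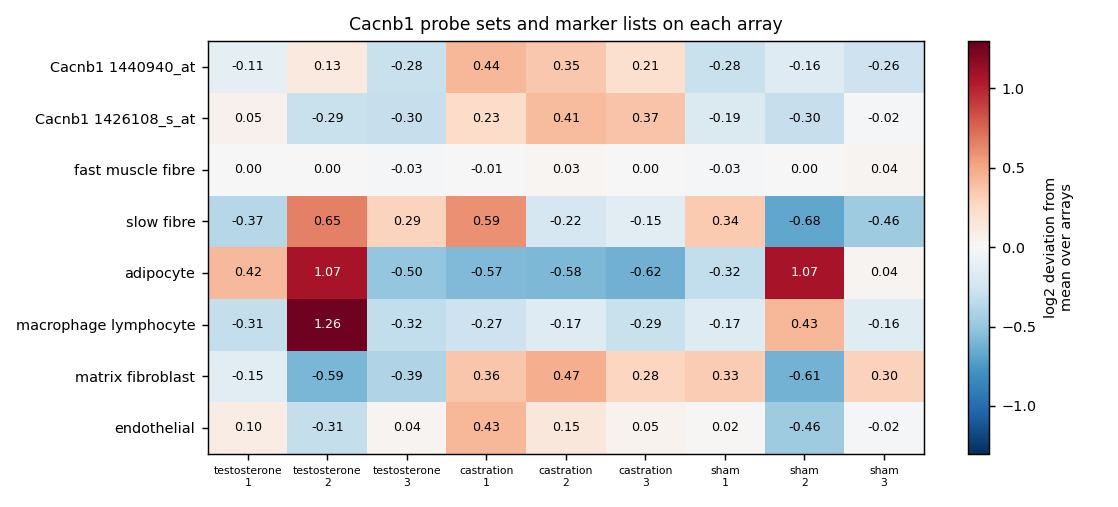
Log2 deviation from the mean over arrays (colour and number) of the Cacnb1 probe sets and 6 marker lists (rows) on each array (columns). Both Cacnb1 rows are above 0 on all castration arrays, between 0.21 and 0.44, while the adipocyte row peaks at 1.07 on testosterone 2 and sham 2 and the fast fibre row stays within 0.04 of 0.

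As a group, the 9 genes with 1 probe set each deviated from their means by 0.06, −0.09 and −0.08 on the testosterone arrays, 0.03, 0.10 and 0.13 on the castration arrays, and −0.13, −0.05 and 0.03 on the sham arrays. Of 5553 genes searched, the 5 whose values followed this profile most closely were Plcd4 (Pearson r = 0.953), Ccng1 (0.925), Slc44a2 (0.922), Ghr (0.916) and Rabggta (0.913), over the 9 arrays. Plcd4, a phospholipase C, read 9.35, 8.89 and 9.09 with testosterone, 9.39, 9.54 and 9.48 after castration, and 8.83, 8.97 and 9.28 in sham. These correlations are descriptions chosen as the highest of many, and all points share the same arrays.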

How the data were processed

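The deposited table holds log2 expression values per probe set for the 9 arrays, which the authors obtained by RMA, per the submitters' processing notes. Its version was not given in the sources used here. This method subtracts background, brings all arrays to 1 common distribution and combines the probes of each set. No further scaling was applied. Of 45101 probe sets 64 were controls and 45037 were tested. The platform annotation lists 34945 of them with 1 gene, 932 with several and leaves 9160 unlisted, and 204 symbols found no match in the reference gene table. Groups came from the sample titles, 3 arrays each, and the number of arrays limits the precision.

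The test was limma (version 3.58.1, R version 4.3.3), fitted by lmFit and eBayes to the 9 arrays with a term for the group and none other, two-sided, with Benjamini-Hochberg adjustment over all 45037 probe sets at 0.05. Intervals are at 95%. Per the labels the arrays of a group are independent biological replicates, and the spread behind each p-value is that between pools of 3 animals. The members, the lists and the combined contrast were chosen with earlier results of these data known. A gene of a list was represented by its brightest probe set over all arrays. All members were named with every probe set, and of each other list the genes that passed or, where none did, up to 4 with the smallest p in the combined contrast. Genes most like the members were the 5 with the highest correlation. Promoter windows came from RefSeq.

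Arrays were checked for duplicates, and any 2 shared at most 5.78% of identical values. Replicate numbers were checked for pairing by the correlation of same-numbered arrays' deviations from their group means. These ran from −0.474 to 0.312 with both signs, and the main fit assumed no pairing by number. With 3 arrays a group, this check cannot show whether same-numbered pools were handled together. The fit was tested in castration against sham on simulated data with 45037 probe sets, of which 50 changed at each size. The simulated noise was independent between probe sets, so it held no shift of a whole array such as that of sham 2. The fit found 33, 47, 45 and 50 of them for changes of 1, 1.5, 2 and 3 on the log2 scale and made 17 false calls. In the main fit all member differences lay under the smallest of these sizes. The largest was −0.91, for Jph2 1421453_at in testosterone against castration. The fits were repeated with a replicate block, only the groups compared, 1 probe set per gene, no dim probe sets, no probe sets with a suffix for cross-hybridisation, median centring, renewed quantile normalisation, an intensity trend, analysis of variance without moderation, array weights, without sham 2 and testosterone 2, and with each array left out. Centring on the brighter probe sets was added after seeing the data.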

Additional observations from a re-analysis of the deposited data

How the results depend on the processing

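The replicates, 3 arrays a group, limit what can be called, and 5 of the 20 member probe sets had a mean under 5 on the log2 scale. In Cacnb1 1426108_s_at and 1440940_at the directions in castration against sham, testosterone against castration and the combined contrast (castration against the mean of testosterone and sham) were kept under every alternative run on them. Counts of probe sets passing moved more. In castration against sham, where 0 passed, 1 passed with renewed quantile normalisation, 3 with an intensity trend, 2 by analysis of variance without moderation, 32 with array weights, 15 without sham 2 and testosterone 2, 24 with centring on bright probe sets (added after seeing the data), and 0 to 2 leaving out 1 array, above 0 only without sham 2. In testosterone against castration, also 0, the counts were 12 with no dim probe sets, 16 with renewed quantile normalisation, 7 with a trend, 1 by analysis of variance, 42 with weights, 20 without both arrays, 42 with bright centring and 0 to 17 leaving out 1 array, above 0 only without sham 2. In testosterone against sham, 1 passed by analysis of variance, and 0 to 0 leaving out 1 array. In the combined contrast, where 14 passed, the replicate block left 0, median centring 0 and analysis of variance 2, while weights gave 90, leaving out both arrays 46, bright centring 63 and leaving out 1 array 0 to 23, the most without sham 2, with 10 without testosterone 2 and 0 without any other array. By the F test over the groups, 0 passed, and 5 did with a trend, 3 by analysis of variance, 35 with weights, 11 without both arrays, 34 with bright centring and 0 to 10 leaving out 1 array, above 0 only without sham 2. The replicate block changed no other count and no member's call. The cause of these changes was not tested.

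Directions turned in members with small, uncalled differences. Median centring turned Cacnb1 1426108_s_at (0.024) and Trdn 1426143_at (0.018) in testosterone against sham and Trdn 1426144_x_at (0.013) in the combined contrast. Renewed quantile normalisation turned Trdn 1426142_a_at (0.015) and Ryr1 1427306_at (0.0068) in testosterone against castration and Cacnb1 1440940_at (−0.048) in testosterone against sham. Array weights turned Cacng1 (0.0039) and Cacnb1 1425777_at (−0.021) in castration against sham, Ryr1 1427306_at (0.015) and Jph1 1438428_at (0.041) in testosterone against castration, Cacna1s (0.039), Cacng1 (0.044) and Cacnb1 1426108_s_at (0.0046) in testosterone against sham, and Trdn 1426134_at (−0.029) and 1426144_x_at (0.0059) in the combined contrast.

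Without sham 2 and testosterone 2, castration against sham turned for Cacnb1 1425777_at (−0.025) and 1451834_at (0.032). Testosterone against castration turned for Jph1 1421520_at (0.0022) and 1438428_at (0.077), Trdn 1426143_at (−0.014) and 1426144_x_at (−0.031), Ryr1 1427306_at (0.018), Cacnb1 1451834_at (−0.036) and Jph2 1455404_at (−0.054). Testosterone against sham turned for Cacna1s (0.054), Jph1 1421520_at (0.090), Cacng1 (0.072), Trdn 1426144_x_at (−0.017) and 1451801_at (−0.11), and the combined contrast for Trdn 1426144_x_at (0.022) and Cacnb1 1451834_at (0.034).

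Bright centring, which lowers differences against sham by construction, turned castration against sham for Atp2a1 (−0.18), Casq1 (−0.082), Cacnb1 1425777_at (−0.12), Trdn 1426134_at (−0.11), 1426144_x_at (−0.19) and 1451940_x_at (−0.13), Ryr1 1427306_at (−0.13), Jph1 1438428_at (−0.019) and Jph2 1455404_at (−0.044). It turned Trdn 1426142_a_at (0.0043) in testosterone against castration. In testosterone against sham it turned Trdn 1426134_at (−0.064), 1426144_x_at (−0.17) and 1451940_x_at (−0.14), Ryr1 1427306_at (−0.13), Jph1 1438428_at (−0.028) and Cacnb1 1440940_at (−0.042). In the combined contrast it turned Atp2a1 (−0.065), Trdn 1426134_at (−0.077) and 1451940_x_at (−0.063), Ryr1 1427306_at (−0.065) and 1457347_at (−0.0016), Jph1 1438428_at (−0.0051) and Jph2 1455404_at (−0.052).

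Leaving out 1 array turned some of the same small values. Castration against sham ran from −0.025 to 0.16 for Cacnb1 1425777_at, −0.94 to 0.032 for 1451834_at, −0.0094 to 0.16 for Trdn 1426134_at and −0.022 to 0.036 for 1426144_x_at. Testosterone against castration ran from −0.036 to 0.075 for Cacnb1 1451834_at, −0.065 to 0.087 for Cacng1, −0.56 to 0.0022 for Jph1 1421520_at, −0.15 to 0.077 for 1438428_at, −0.054 to 0.11 for Jph2 1455404_at, −0.047 to 0.018 for Ryr1 1427306_at, and for Trdn −0.037 to 0.14 in 1426134_at, −0.098 to 0.10 in 1426142_a_at, −0.014 to 0.058 in 1426143_at, −0.031 to 0.040 in 1426144_x_at, −0.18 to 0.14 in 1451801_at and −0.024 to 0.0041 in 1451940_x_at. Testosterone against sham ran from −0.14 to 0.0073 for Cacna1s, −0.23 to 0.0026 for Cacnb1 1425777_at, −0.12 to 0.066 for 1426108_s_at, −0.92 to 0.055 for 1451834_at, −0.11 to 0.044 for Cacng1, −0.29 to 0.28 for Jph1 1421520_at, and for Trdn −0.052 to 0.011 in 1426143_at, −0.023 to 0.046 in 1426144_x_at and −0.024 to 0.45 in 1451801_at. The combined contrast ran from −0.48 to 0.0040 for Cacnb1 1451834_at, −0.070 to 0.019 for Cacng1, and for Trdn −0.073 to 0.10 in 1426134_at, −0.031 to 0.027 in 1426144_x_at and −0.040 to 0.28 in 1451801_at.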

Other observations

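Slow fibre genes varied between pools inside each group. Myh7, the slow myosin heavy chain, read 11.23, 12.60 and 11.90 on the testosterone arrays, 12.01, 11.45 and 11.30 on the castration arrays, and 11.93, 11.22 and 11.20 on the sham arrays. Tnnt1, the slow troponin T, read 10.36, 11.70 and 11.11 with testosterone, 11.51, 10.68 and 10.62 after castration, and 11.07, 10.27 and 10.33 in sham. Within their groups both were highest on testosterone 2, castration 1 and sham 1. Testosterone 3 was close to sham 1 in both, and the groups overlapped. Atp2a2, the slow fibre counterpart of the pump Atp2a1, ran from 10.65 on sham 2 to 11.70 on castration 1, while Atp2a1 itself kept within 0.14 over all arrays.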
